A study of Caenorhabditis elegans with 12 samples.

Results

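Cathepsins are lysosomal and secreted proteases, and most of those with a catalytic cysteine belong to the papain family. They are made as inactive precursors, are activated in acidic compartments, and are held in check by small inhibitors called cystatins. In Caenorhabditis elegans, several cathepsin B-like proteases, named cpr, act in the gut, where dietary and stored protein is broken down. The cathepsin L-like protease CPL-1 is known for yolk processing in embryos and for growth and moulting, and the cathepsin Z-like protease CPZ-1 for moulting. The genes described here are 7 of the 44968 gene entries counted in each library: the cathepsin B-like cpr-1, cpr-3, cpr-4, cpr-5 and cpr-6, the cathepsin L-like cpl-1 and the cathepsin Z-like cpz-1. Only the 5 cpr genes are cathepsin B-like by name. The count files list them as C52E4.1 (cpr-1), T10H4.12 (cpr-3), F44C4.3 (cpr-4), W07B8.5 (cpr-5), C25B8.3 (cpr-6), T03E6.7 (cpl-1) and F32B5.8 (cpz-1). In the Ensembl annotation all are protein-coding; cpr-1, cpr-3, cpr-4, cpr-5 and cpl-1 lie on chromosome V, cpr-6 on X and cpz-1 on I. An exon of cpr-4 overlaps an annotated piRNA gene, and no exon of the other members overlaps another gene. The 7 were picked by symbol from the authors' table of daf-2 RNAi over empty vector, which lists 12395 genes and holds 10 cpr, cpl and cpz genes. The low level of cpr-4 and cpr-1 in that comparison was known when the family was chosen, so the members' values in it are given as a description. Their calls in that comparison are counted only beside the share of all genes called, and support nothing.

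The data are mRNA sequencing counts of first-stage (L1) larvae that hatched without food and stayed arrested. Their parents had eaten HT115 bacteria for 72 h that carried daf-2 RNAi, pitr-1 RNAi or an empty vector, and each group held 4 libraries. All animals, the empty vector ones included, carried hrde-1(tm1200), a mutation in a nuclear Argonaute needed for inherited silencing in the germline, so no wild type stands beside them. daf-2 encodes the insulin/IGF receptor. Freezing followed the release of the embryos by about 24 h. The labels number the libraries of a group as biological replicates 1 to 4 and say nothing more of separate cultures, so the p-values measure the spread between these libraries. RNA was not measured in the parents, and each library holds RNA of many whole larvae. Fewer cells of a type and less RNA per cell therefore cannot be told apart.

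Gene counts ranged from 5907286 to 11490429 per library, of which ribosomal RNA took 15.2% to 44.8%. Mitochondrial transcripts took 2.67% to 5.51% of gene counts in replicates 1 and 3 and 0.606% to 0.950% in replicates 2 and 4, in every RNAi group. Markers of intestine, muscle, pharynx and neurons were detected in the larvae, none of them at 0 in all libraries. Summed germline and early embryo markers stood at 23.9 to 167 CPM (reads of a gene per 1000000 of its library, scaled by TMM) in daf-2 RNAi, 21.7 to 209 CPM in pitr-1 RNAi and 20.04 to 43.8 CPM in empty vector libraries. Their part in the members' results was not tested.

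The members fell into a high and a low tier. Levels are compared between genes only as CPM per kilobase of exon, for which the exon lengths run from 993 bases in cpz-1 to 1369 bases in cpr-3. In empty vector larvae, cpz-1 stood highest at 417 ± 35.9 CPM per kilobase (SD, n = 4), with cpl-1 at 259 ± 15.5 and cpr-6 at 213 ± 21.05. These levels were above those of 98.1%, 97.1% and 96.5% of the 14462 tested genes with a length. The low tier held cpr-1 at 44.3 ± 15.8, cpr-4 at 40.7 ± 13.003, cpr-5 at 38.98 ± 7.38 and cpr-3 at 9.15 ± 5.79 CPM per kilobase. The cathepsin Z-like and the cathepsin L-like gene thus each stood above the 5 cathepsin B-like members. cpr-2, a cathepsin B-like gene outside the 7, was higher than either, at 674 ± 75.9 CPM per kilobase.

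The order within the high tier was stable from library to library. cpz-1 was above cpl-1 in 12 of 12 libraries, cpl-1 above cpr-6 in 11 of 12, and cpr-6 above cpr-1 in 12 of 12, on the scale of CPM per kilobase. cpr-5 was above cpr-3 in 12 of 12 libraries. In empty vector larvae the neighbours cpr-1, cpr-4 and cpr-5 did not differ beyond their spread: cpr-1 was above cpr-4 in 3 of 4 libraries and cpr-4 above cpr-5 in 2 of 4. cpr-1 was above cpr-4 in 4 of 4 daf-2 RNAi libraries, against 0 of 4 pitr-1 RNAi libraries. Of the summed level of the 7 genes per kilobase, cpr-4 held 0.928% on average in daf-2 RNAi, 4.33% in pitr-1 RNAi and 3.96% in empty vector larvae, while cpz-1 held 41.9%, 39.8% and 40.8% in the same 3 groups.

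**Figure D1:**
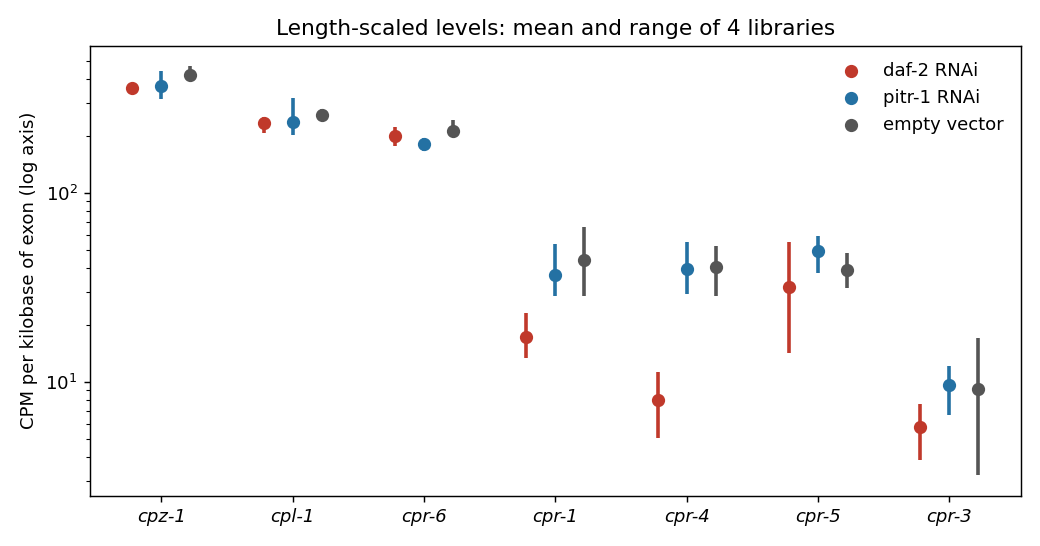
Levels of the 7 cathepsin genes in CPM per kilobase of exon on a log axis; points are means and bars the range of 4 libraries for daf-2 RNAi, pitr-1 RNAi and empty vector larvae. cpz-1, cpl-1 and cpr-6 lie in a high tier in all 3 groups, and the cpr-4 range in daf-2 RNAi larvae lies below both other groups.

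The comparison of daf-2 RNAi with empty vector asks how starved progeny differ when the parents' insulin receptor was knocked down. cpr-4, a cathepsin B-like protease that irradiated C. elegans secrete, stood at 5.68, 6.75, 12.7 and 10.8 CPM in daf-2 RNAi replicates 1 to 4, against 34.5, 58.9, 58.3 and 31.97 CPM in empty vector replicates 1 to 4. All 4 daf-2 RNAi libraries lay below all 4 empty vector libraries. These values rest on 57 to 126 reads per daf-2 RNAi library and 189 to 650 per empty vector library. The means were 8.99 ± 3.32 CPM in daf-2 RNAi and 45.9 ± 14.7 CPM in empty vector larvae (SD, n = 4 each), a log2 fold change of −2.35 ± 0.32 (standard error, SE) and a fold of 0.196. It was the fifth lowest of the 14664 tested genes by log2 fold change. Within the libraries low in mitochondrial RNA (replicates 2 and 4) the log2 fold change was −2.37, and within replicates 1 and 3 it was −2.32.

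cpr-1, a cysteine protease of the gut, stood at 14.3, 20.4, 14.4 and 24.98 CPM in daf-2 RNAi replicates 1 to 4, against 44.9, 71.3, 44.1 and 30.6 CPM in empty vector replicates 1 to 4. The groups did not overlap, but the replicates numbered 4 of both groups lay close to each other. The means were 18.5 ± 5.15 CPM in daf-2 RNAi and 47.7 ± 17.03 CPM in empty vector larvae, with a log2 fold change of −1.36 ± 0.29 (SE). By replicate number, the log2 ratios of cpr-1 were −1.61, −1.78, −1.58 and −0.29.

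The other members differed less. cpr-3, a cathepsin B-like gene with the lowest level of the 7, was at 5.28, 9.16, 10.5 and 6.52 CPM in daf-2 RNAi replicates 1 to 4 and at 4.38, 23.3, 9.94 and 12.5 CPM in empty vector replicates 1 to 4. These ranges overlapped, and empty vector replicate 2 alone was above every daf-2 RNAi and pitr-1 RNAi library. Its log2 fold change was −0.69 ± 0.40 (SE). cpr-5, another cathepsin B-like gene, was at 17.1, 41.2, 28.4 and 66.3 CPM in daf-2 RNAi replicates 1 to 4 and at 37.98, 50.4, 41.7 and 57.8 CPM in empty vector replicates 1 to 4. daf-2 RNAi libraries held both its lowest and its highest value of these 8 libraries, and its log2 fold change was −0.30 ± 0.33 (SE).

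The high tier stayed near its empty vector level. cpz-1 was at 378, 346, 352 and 344 CPM in daf-2 RNAi replicates 1 to 4, against 463, 390.4, 419 and 385 CPM in empty vector replicates 1 to 4, without overlap. The log2 fold change of cpz-1 was nevertheless only −0.22 ± 0.16 (SE). cpl-1 averaged 278 ± 25.1 CPM in daf-2 RNAi and 308 ± 18.5 CPM in empty vector larvae, and cpr-6 averaged 252 ± 24.4 and 269 ± 26.5 CPM in the same groups (SD, n = 4 each). Their ranges overlapped, with log2 fold changes of −0.15 ± 0.18 for cpl-1 and −0.094 ± 0.16 for cpr-6 (SE).

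All 7 log2 fold changes were below 0, with a median of −0.30, beside a median of 0.0048 over all tested genes. With edgeR's quasi-likelihood test and a Benjamini-Hochberg adjusted p under 0.05, 1 of the 7, cpr-4, was called, where 0.0341% of all tested genes were called. With the replicate number as a block, 2 of the 7, cpr-4 and cpr-1, were called, beside 0.314% of all genes. For 3 of the 7, cpr-4, cpr-1 and cpz-1, every daf-2 RNAi library lay below every empty vector library, as for 1.07% of all tested genes. Because this comparison brought the family into view, nothing is read from these counts. No member was called when daf-2 RNAi replicate 1, 2 or 4 or empty vector replicate 2 or 3 was left out, nor within replicates 2 and 4 or replicates 1 and 3 alone; the log2 fold change of cpr-4 lay between −2.56 and −2.19 over the single omissions. In the authors' deposited table, made with a batch correction on the compared libraries, the log2 fold change was −2.36 for cpr-4 and −1.34 for cpr-1.

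**Figure D2:**
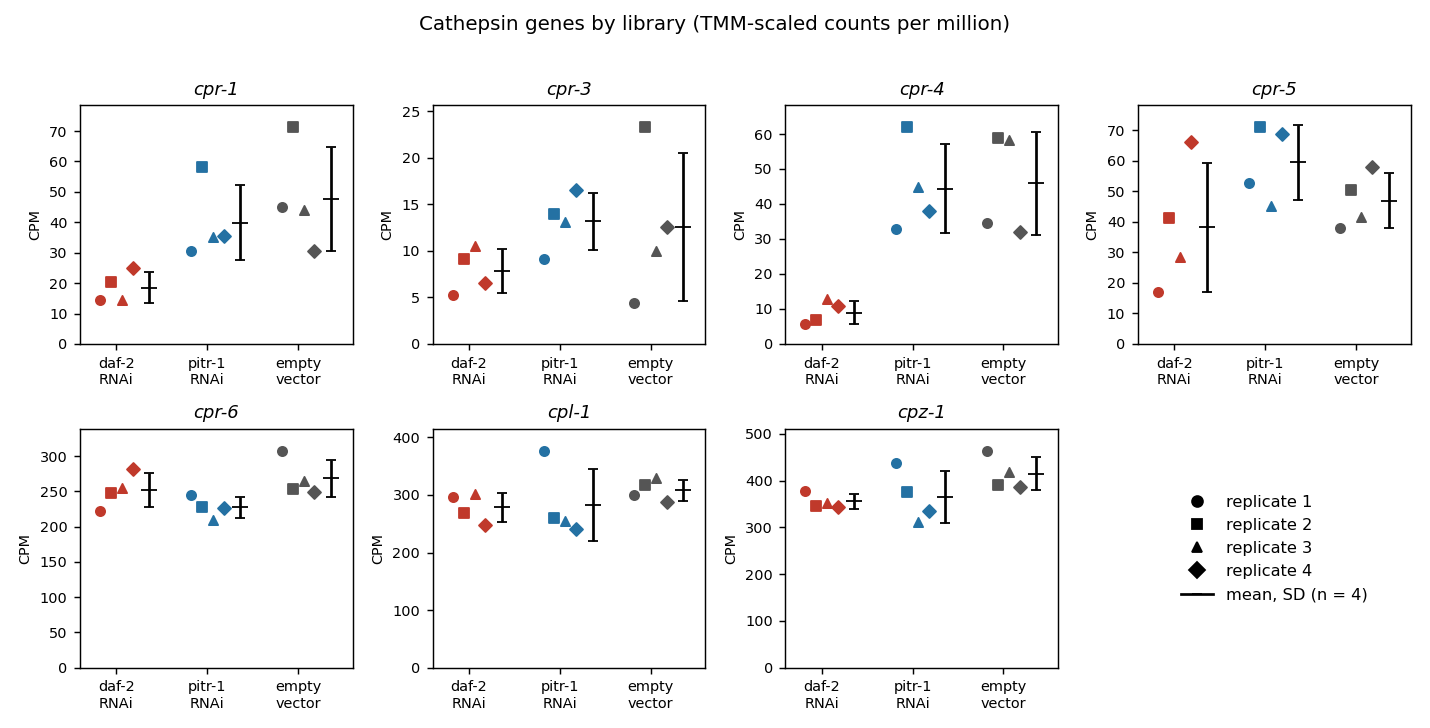
CPM of each cathepsin gene in every library; marker shapes give the replicate number, and the black bar is the mean and SD of 4 libraries of daf-2 RNAi, pitr-1 RNAi and empty vector larvae. The 4 daf-2 RNAi values of cpr-4 lie between 5.68 and 12.7 CPM, below the other 8 libraries, while cpr-6, cpl-1 and cpz-1 differ little between groups.

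Both genes are known from the gut, so their levels were set against 8 intestine markers. The summed markers ranged from 1041 to 1650 CPM in daf-2 RNAi, 1128 to 1411 CPM in pitr-1 RNAi and 1387 to 1512 CPM in empty vector larvae. For every 1000 CPM of these markers, cpr-4 had 4.95 to 10.3 CPM in daf-2 RNAi, 26.2 to 46.8 CPM in pitr-1 RNAi and 21.1 to 41.7 CPM in empty vector libraries. On this scale the daf-2 RNAi libraries lay below the others, which restates the low cpr-4 values known when the family was chosen. The marker sums varied far less than cpr-4 did, so the division could hardly change that order. cpr-1 had 11.7 to 15.1 CPM for every 1000 CPM of the markers in daf-2 RNAi, 24.3 to 43.8 CPM in pitr-1 RNAi and 20.2 to 50.5 CPM in empty vector libraries. The ratio of cpr-4 to cpr-1, per kilobase, was 0.315 to 0.841 in daf-2 RNAi, 1.02 to 1.22 in pitr-1 RNAi and 0.734 to 1.26 in empty vector libraries, so that the daf-2 RNAi range reached below those of both other groups.

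Among the marker genes themselves, all 8 had a log2 fold change below 0 in daf-2 RNAi over empty vector, with a median of −0.15, and none was called. The largest were those of pept-1, the intestinal peptide transporter, at −0.76 ± 0.22 (SE), and of elt-2, the GATA factor of the gut, at −0.70 ± 0.26. pept-1 averaged 22.7 ± 4.199 CPM in daf-2 RNAi and 38.2 ± 8.87 CPM in empty vector larvae. It was called with the replicate block (adjusted p = 0.0394, edgeR), beside 0.314% of all tested genes. Without the block 0.0341% of all tested genes were called, so no call was the likely outcome for these markers. Most of the summed marker CPM came from ifb-2 and vha-6, which averaged 688 ± 181 and 461 ± 75.4 CPM in daf-2 RNAi and 741 ± 44.7 and 479.6 ± 53.5 CPM in empty vector larvae, so the ratios above say little of pept-1 or elt-2. The part of gut transcripts in the low cpr-4 and cpr-1 values was not tested.

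The comparison of pitr-1 RNAi with empty vector was not used to choose the genes, though its 4 empty vector libraries are the same as above. pitr-1 is annotated as a relative of phosphate transporters. None of the 7 members was called with or without the replicate block, where 0.00682% of all tested genes were called in either fit. cpr-4 stood at 32.98, 61.96, 44.7 and 38.04 CPM in pitr-1 RNAi replicates 1 to 4. These values overlapped the empty vector libraries given above, with replicate 2 higher than all 4 of them. Its mean of 44.4 ± 12.6 CPM in pitr-1 RNAi, beside 45.9 ± 14.7 CPM in empty vector larvae, gave a log2 fold change of −0.045 ± 0.30 (SE) with an approximate 95% interval of −0.72 to 0.63. The daf-2 RNAi value of −2.35 lies outside this interval. It was known to be low when the family was chosen, so this is a description and not a test.

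cpr-1 stood at 30.6, 58.04, 35.1 and 35.5 CPM in pitr-1 RNAi replicates 1 to 4, again overlapping empty vector, with a log2 fold change of −0.26 ± 0.29 (interval −0.91 to 0.39). cpr-3 was at 9.16, 13.9, 13.1 and 16.5 CPM, with a log2 fold change of 0.070 ± 0.39 (interval −0.82 to 0.96). cpr-5 was at 52.9, 71.01, 45.3 and 68.6 CPM in pitr-1 RNAi replicates 1 to 4. It was above the empty vector library of the same number in 4 of 4 cases, but the groups overlapped and the log2 fold change of 0.34 ± 0.33 did not pass the test (interval −0.40 to 1.08; edgeR adjusted p = 1.00, and 0.999 with the replicate block).

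Of the high tier, cpr-6 was at 245, 228, 209.8 and 226 CPM in pitr-1 RNAi replicates 1 to 4, against 307, 253, 264 and 249.5 CPM in empty vector replicates 1 to 4. It was the 1 member of 7 whose pitr-1 RNAi libraries all lay below all empty vector libraries, as did 0.614% of all tested genes. Its log2 fold change was −0.24 ± 0.16 (SE; interval −0.60 to 0.11; edgeR adjusted p = 1.00). cpl-1 averaged 282 ± 62.9 CPM in pitr-1 RNAi and 308 ± 18.5 CPM in empty vector larvae, and cpz-1 averaged 365 ± 55.3 and 414 ± 35.7 CPM in the same groups (SD, n = 4 each). Their log2 fold changes were −0.13 ± 0.18 and −0.18 ± 0.16 (SE). The median over the 7 members was −0.13, beside 0.022 over all tested genes. Changes of this size were not detectable beyond the spread between libraries.

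daf-2 RNAi and pitr-1 RNAi larvae were also compared with each other, which leaves out the empty vector libraries. The daf-2 RNAi libraries are those of the first comparison, so these values are a description too and no separate support. cpr-4 had a log2 fold change of −2.31 ± 0.32 (SE) in daf-2 RNAi over pitr-1 RNAi and cpr-1 one of −1.10 ± 0.29, and for both genes all daf-2 RNAi libraries lay below all pitr-1 RNAi libraries. Such an order held for 2 of the 7 members and 1.02% of all tested genes. The log2 fold changes of cpr-3 and cpr-5 were −0.76 ± 0.40 and −0.64 ± 0.33, those of cpl-1 and cpz-1 −0.020 ± 0.18 and −0.039 ± 0.16, and that of cpr-6 0.15 ± 0.16 (SE). With edgeR 1 member, cpr-4, was called, beside 0.0136% of all tested genes, and with the replicate block it was again cpr-4 alone, beside 0.15%. No member was called in this comparison when only its 8 libraries were fitted, within replicates 2 and 4 or replicates 1 and 3 alone, or without any single one of daf-2 RNAi replicates 1, 2 and 4 and pitr-1 RNAi replicates 2, 3 and 4, while the log2 fold change of cpr-4 lay between −2.52 and −2.10 over the single omissions.

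**Figure D3:**
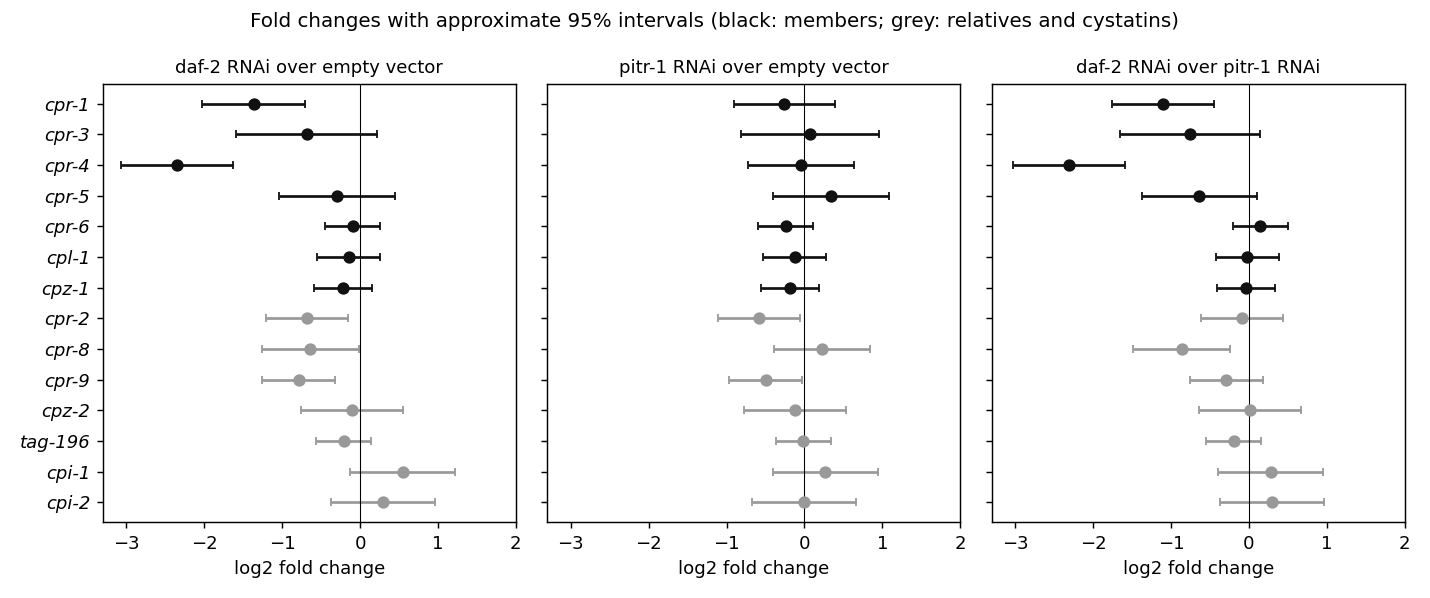
Log2 fold changes with approximate 95% intervals for the 7 cathepsin genes (black) and for related proteases and cystatins (grey), in daf-2 RNAi over empty vector, pitr-1 RNAi over empty vector and daf-2 RNAi over pitr-1 RNAi. cpr-4 lies at −2.35, −0.045 and −2.31 in the 3 panels; the first panel is the comparison that brought the family into view and shares libraries with each of the other panels.

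Variation with the replicate number was not used to choose the genes. Numbers 1 to 4 were tested together with the RNAi group kept in the fit. cpr-5 was the 1 member of 7 that was called (edgeR adjusted p = 0.0194), where 26.6% of all tested genes were called, a share the members did not exceed. Its means over the 3 RNAi groups were 35.99 ± 17.96, 54.2 ± 15.3, 38.5 ± 8.89 and 64.2 ± 5.69 CPM for replicate numbers 1 to 4 (SD, n = 3 each). cpr-5 was thus high in replicates 2 and 4, which are also low in mitochondrial RNA, and the part of that difference was not tested. The call of cpr-5 was lost without daf-2 RNAi replicate 4 (adjusted p = 0.0614) and without the RNAi group in the fit (adjusted p = 0.119).

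cpr-3 averaged 6.27 ± 2.54, 15.5 ± 7.18, 11.2 ± 1.703 and 11.8 ± 5.03 CPM for replicate numbers 1 to 4, the widest log2 range of the 7 members at 1.28 (edgeR adjusted p = 0.0604). cpr-1 and cpr-4 also missed the threshold, with adjusted p of 0.0952 and 0.0966 and log2 ranges of 0.71 and 0.77. Both were called when the filter on low counts was dropped. Without daf-2 RNAi replicate 4 or empty vector replicate 1 or 4, cpr-1 was called, and cpr-4 was called without daf-2 RNAi replicate 2. The high tier varied less with the replicate number. cpr-6 averaged 258 ± 44.0, 243 ± 13.1, 243 ± 29.2 and 252 ± 27.9 CPM for replicate numbers 1 to 4, a log2 range of 0.088 with an adjusted p of 0.943. For cpl-1 and cpz-1 the adjusted p was 0.368 and 0.389.

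**Figure D4:**
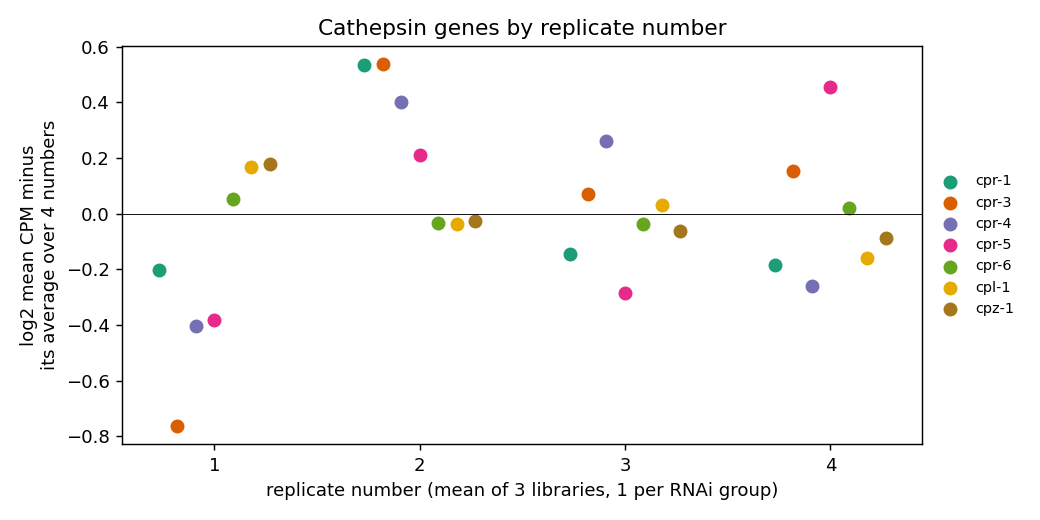
Log2 of the mean CPM of 3 libraries, 1 per RNAi group, for each replicate number, minus the gene's average over the 4 numbers. cpr-5 lies high for numbers 2 and 4 and low for 1 and 3, cpr-3 spreads most, and cpr-6 stays near 0.

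Cystatins inhibit papain-family proteases, and C. elegans has a pair of them, cpi-1 and cpi-2. cpi-1 was at 110.1, 55.5, 101 and 53.1 CPM in daf-2 RNAi replicates 1 to 4, at 95.02, 41.4, 74.7 and 52.9 CPM in pitr-1 RNAi and at 55.9, 48.5, 69.5 and 45.4 CPM in empty vector replicates 1 to 4. Its libraries of replicates 1 and 3 were above those of replicates 2 and 4 in every group. Its log2 fold change over empty vector was 0.55 ± 0.30 for daf-2 RNAi and 0.26 ± 0.30 for pitr-1 RNAi (SE), neither called. cpi-2 averaged 189 ± 80.6 CPM in daf-2 RNAi, 154 ± 54.9 CPM in pitr-1 RNAi and 154 ± 29.3 CPM in empty vector larvae, and also differed by replicate number (edgeR adjusted p = 0.0026, and 0.00506 for cpi-1). By replicate number, cpi-1 was higher in daf-2 RNAi than in empty vector in 4 of 4 pairs and cpi-2 in 3 of 4, but neither was called with the replicate block (edgeR adjusted p = 0.380 for cpi-1 and 0.754 for cpi-2).

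Of 20 other papain-family genes, 13 passed the filter on low counts. This list was drawn up with results of these data known, and it holds the 3 cpr and cpz genes of the authors' table that are not among the 7. None of the 13 was called in any RNAi comparison, with or without the block. Of all tested genes, 0.00682% to 0.314% were called in these fits, so no call is the likely outcome for such a list. In daf-2 RNAi over empty vector 12 of 13 had a log2 fold change below 0, with a median of −0.35 beside 0.0048 over all tested genes. In pitr-1 RNAi over empty vector 8 of 13 were below 0, with a median of −0.058. The controls are shared, so these counts are not separate evidence.

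cpr-2, the cathepsin B-like gene with the most counts here, was at 318, 578, 343 and 554 CPM in daf-2 RNAi replicates 1 to 4, 445, 607, 371 and 491 CPM in pitr-1 RNAi and 611, 787, 701 and 773 CPM in empty vector replicates 1 to 4. Both RNAi groups lay below all 4 empty vector libraries. The log2 fold changes of cpr-2 were −0.68 ± 0.23 for daf-2 RNAi and −0.59 ± 0.23 for pitr-1 RNAi over empty vector (SE; edgeR adjusted p = 1.00 each, and 0.0540 and 0.999 with the replicate block). Between daf-2 RNAi and pitr-1 RNAi larvae the log2 fold change of cpr-2 was −0.094 ± 0.23. cpr-9 averaged 76.5 ± 5.87 CPM in daf-2 RNAi, 93.7 ± 19.2 CPM in pitr-1 RNAi and 132 ± 32.5 CPM in empty vector larvae, with log2 fold changes over empty vector of −0.79 ± 0.21 for daf-2 RNAi and −0.50 ± 0.21 for pitr-1 RNAi. Its adjusted p in daf-2 RNAi was 0.573 with edgeR and 0.0770 with the replicate block. cpr-8, at 5.45 ± 0.698 CPM in daf-2 RNAi, 9.88 ± 1.503 CPM in pitr-1 RNAi and 8.52 ± 3.07 CPM in empty vector larvae, was not called. How reads shared between similar cpr genes were counted is not given in the sources used here.

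**Figure D5:**
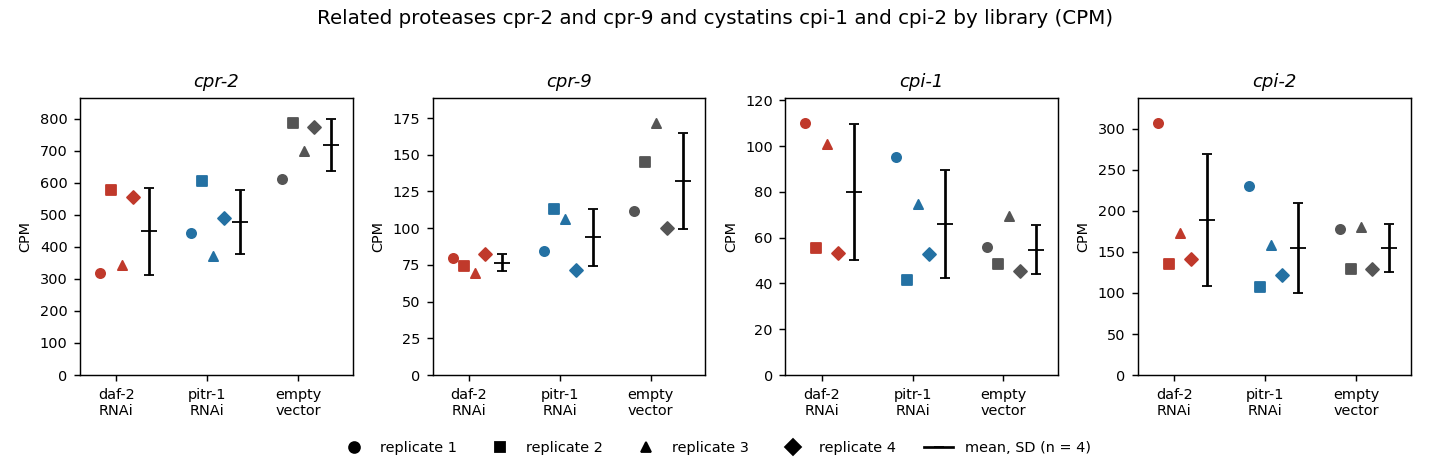
CPM by library of the related proteases cpr-2 and cpr-9 and the cystatins cpi-1 and cpi-2 in daf-2 RNAi, pitr-1 RNAi and empty vector larvae; marker shapes give the replicate number and the bar the mean and SD of 4 libraries. cpr-2 lies below the shared empty vector libraries in both RNAi groups, as do 1.07% (daf-2 RNAi) and 0.614% (pitr-1 RNAi) of all tested genes. cpi-1 and cpi-2 are higher in replicates 1 and 3 than in 2 and 4.

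In daf-2 RNAi over empty vector only 0.0341% of all tested genes were called, so a list without a call is the likely outcome. Of the genes that work beside the cathepsins, none was called in daf-2 RNAi larvae. This held for 11 tested aspartyl proteases, 18 lysosomal membrane and hydrolase genes, 21 subunits of the vacuolar ATPase that acidifies lysosomes, and 9 transcription factors of gut, lysosome and insulin-like signalling, in the comparison with empty vector. Their median log2 fold changes were −0.15, −0.025, 0.053 and −0.095, beside 0.0048 over all tested genes. The aspartyl protease gene asp-10 was the 1 call of these lists in pitr-1 RNAi, at 154 ± 7.35 CPM beside 54.4 ± 5.63 CPM in empty vector larvae (log2 fold change 1.499 ± 0.18, edgeR adjusted p = 0.00924). This call was lost without empty vector replicate 1, 2 or 4, or without pitr-1 RNAi replicate 3 or 4. asp-10 was likewise lower in daf-2 RNAi than in pitr-1 RNAi larvae (−1.52 ± 0.18), a call lost without daf-2 RNAi replicate 2 or 4 and in the fit of the 8 libraries alone. hlh-30, the relative of mammalian TFEB, a regulator of lysosomal genes, was at 161 ± 47.5 CPM in daf-2 RNAi and 195 ± 58.2 CPM in empty vector larvae and was not called. By replicate number, 5 of the 18 lysosomal genes, 6 of the 21 vacuolar ATPase genes and 1 of the 11 aspartyl proteases were called, beside 26.6% of all tested genes.

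The genes whose log2 CPM followed cpr-4 most closely over the 12 libraries were sought among 9897 genes of at least 5 CPM. Each gene was centred on its own mean, and likeness was the root mean square difference in log2 CPM. The 5 closest were acox-1, a peroxisomal acyl-CoA oxidase, at 0.595, cpr-1 at 0.643, F28H7.2 at 0.705, the C-type lectin gene clec-7 at 0.724 and Y49E10.18 at 0.753, beside a median of 1.24 over all genes. For cpr-1 the closest were acox-1 at 0.294, tag-244 at 0.340, Y106G6H.1 at 0.380, pept-1 at 0.383 and R07C12.2 at 0.410, beside a median of 0.783. A gene that did not vary at all would score 1.17 against cpr-4, 0.689 against cpr-1 and 0.559 against cpr-5. The medians over all genes thus largely reflect the spread of these 3 genes themselves. The daf-2 RNAi libraries weigh in this measure, and the low cpr-4 and cpr-1 there were known when the family was chosen. The genes closest to cpr-4 had log2 fold changes of −1.36 to −1.01 in daf-2 RNAi over empty vector, so the likeness is a description of that same pattern. acox-1 averaged 5.87 ± 1.31 CPM in daf-2 RNAi, 14.6 ± 4.82 CPM in pitr-1 RNAi and 14.02 ± 5.31 CPM in empty vector larvae. The genes closest to cpr-5 were others: Y54E5A.2 at 0.203, the carboxypeptidase-related ctsa-2 at 0.206, hrpk-2 at 0.238, qua-1 at 0.239 and the acid ceramidase gene asah-1 at 0.248, beside a median of 0.664. With each gene centred within its replicate number, 3, 1 and 3 of these 5 remained among the 5 closest to cpr-4, cpr-1 and cpr-5. Y54E5A.2, hrpk-2 and qua-1 lay near the minimum of 5 CPM set for the search. Their lowest values were 2.39, 2.49 and 1.19 CPM, all in daf-2 RNAi replicate 1.

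Summed over the 7 members, the family stood at 939 to 982 CPM in daf-2 RNAi, 913 to 1185 CPM in pitr-1 RNAi and 1055 to 1192 CPM in empty vector libraries. The daf-2 RNAi sums lay below all empty vector sums, with means of 959 ± 22.2 CPM in daf-2 RNAi and 1144 ± 61.2 CPM in empty vector larvae (SD, n = 4 each). Because this comparison brought the family into view, the order of the sums is a description and no separate support. In CPM, the difference in the sum lay in the abundant genes as well as in cpr-4 and cpr-1: cpz-1 averaged 355 ± 15.7 CPM in daf-2 RNAi and 414 ± 35.7 CPM in empty vector larvae, a wider gap in CPM than that of cpr-4 and a far smaller fold.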

How the data were processed

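mRNA was measured in 12 libraries, 4 per RNAi group. The authors deposited whole-number counts of reads per gene, with 44968 gene entries and 5 summary entries per library. Per the submitters' processing notes, the tools were Bowtie 1.2.2, HTSeq and edgeR. Per the labels, the library kit does not mark strand. As the sources used here do not give the genome build or annotation, no coordinates are given. Library sizes and tests leave out the summary entries. They took 1.71% to 4.60% of reads as no feature, 4.59% to 8.45% as ambiguous and 16.3% to 39.8% as not aligned. The authors also deposited log2 fold changes, average log2 CPM, F scores, p-values and false discovery rates, which entered no test here.

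The authors' tables named 12395 identifiers and the annotation of Ensembl release 115 named 31351. The other 1222 were not matched. Exon lengths came from the same annotation.

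Tests used edgeR 4.0.16 in R 4.3.3. Counts were scaled by TMM, filterByExpr kept 14664 genes, all 7 members among them, and the robust quasi-likelihood fit had 1 coefficient per group over 12 libraries. Tests were two-sided, and a gene was called at a Benjamini-Hochberg adjusted p under 0.05 over all tested genes. CPM are counts per 1000000 of the TMM-scaled library. The SE of a log2 fold change is its size divided by the square root of F. The approximate 95% intervals use 9 residual degrees of freedom.

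Deviations from the group means correlated between same-numbered libraries at 0.137 to 0.505, 0.104 to 0.508 and 0.434 to 0.610 in the 3 comparisons. Differently numbered libraries reached up to 0.492, 0.381 and 0.490. The ranges thus overlap, and a pairing by number is not settled by them. The labels do not state such a pairing either. Values of the fit that adds the replicate number (the replicate block) are given beside any call or count that they move. The common coefficient of biological variation was 0.367 without the block and 0.240 with it.

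The alternatives were edgeR's RLE size factors, no filter, DESeq2 1.42.0, the replicate block, only the libraries compared, only replicates 2 and 4 or 1 and 3, and each library left out in turn. The 7 members and the 11 gene lists were chosen with earlier results of these data known. Genes are named by 1 rule, except for ifb-2 and vha-6, which gave most of the summed intestine marker CPM. The rule takes all members and every gene of a list that was called between RNAi groups. Otherwise it takes up to 3 with the largest log2 fold change in daf-2 RNAi over empty vector. Only genes of mean 5 CPM or more enter that choice. It also takes the 5 closest in likeness to cpr-4, cpr-1 and cpr-5, measured on log2 CPM (prior count 2). List genes called only by replicate number are given as counts.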

Additional observations from a re-analysis of the deposited data

Results flagged for a closer look

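cpl-1, the cathepsin L-like gene, stood at 376 CPM in pitr-1 RNAi replicate 1, far from the 241 to 259 CPM of the other 3 pitr-1 RNAi libraries. This was the 1 sample that stood apart in this way among 21 sets of 4 libraries, 1 set for each of the 7 genes in each RNAi group, and chance alone sets a sample apart in about 1 of 20 such sets. pitr-1 RNAi replicate 1 also had the fewest gene counts, 5907286, and its cpl-1 value rests on 1437 reads. Without this library the log2 fold change of cpl-1 in pitr-1 RNAi over empty vector was −0.28, against −0.13 with it, and neither was called.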

How the results depend on the processing

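Of 427 member values under the alternatives, 379 kept their direction and their side of the threshold, 18 lost a call, 11 gained one and 19 changed sign, all of the last uncalled. In daf-2 RNAi over empty vector, 1 member and 5 genes were called. These were 2 members with no filter, DESeq2 or the replicate block and 0 within replicates 2 and 4 or 1 and 3; the genes called were 13 with no filter, 50 with DESeq2, 46 with the replicate block, 15 within replicates 2 and 4 and 0 within replicates 1 and 3. Leaving out 1 library at a time gave 0 to 1 members and 0 to 3 genes. In pitr-1 RNAi over empty vector no member was called under any alternative run (DESeq2 included). There 253 of the 14664 tested genes had an unadjusted p under 0.05 in edgeR, and 535 with the replicate block. Both counts are lower than chance alone would give. The 1 gene called became 4 within replicates 2 and 4, 0 within replicates 1 and 3, and 0 to 1 on leaving out 1 library. In daf-2 RNAi over pitr-1 RNAi, 1 member and 2 genes became 0 members within replicates 2 and 4, within 1 and 3 or with only the 8 libraries; the genes called became 6 with no filter, 22 with DESeq2, 22 with the replicate block, 25 within replicates 2 and 4, 0 within replicates 1 and 3 and 0 with only the 8 libraries. Single omissions gave 0 to 1 members and 0 to 2 genes. By replicate number, 1 member became 4 with no filter, 2 with DESeq2 and 0 without the RNAi group; single omissions gave 1 to 2 members and 2580 to 5735 genes, against 3901. The replicate block changed no other call of a member. The cause of these differences was not tested. Signs changed for small, uncalled log2 fold changes. In daf-2 RNAi over empty vector these were 0.067 for cpr-6 within replicates 2 and 4 and 0.14 for cpr-3 within replicates 1 and 3. In pitr-1 RNAi over empty vector they were −0.24 for cpr-3 and 0.13 for cpr-4 within replicates 2 and 4 and 0.0049 for cpl-1 within replicates 1 and 3; single omissions gave −0.50 to 0.0015 for cpr-1, −0.20 to 0.55 for cpr-3 and −0.25 to 0.096 for cpr-4. In daf-2 RNAi over pitr-1 RNAi they were 0.020 for cpl-1 with no filter and 0.046 within replicates 2 and 4; single omissions gave −0.080 to 0.15 for cpl-1 and −0.10 to 0.057 for cpz-1. The fits within replicates 2 and 4 or 1 and 3 hold 2 libraries a group, and cpr-3, at 24 to 257 reads per library, is the member with the fewest reads.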

Other observations

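Transcripts of the germline and early embryo were uneven between larval populations. All 8 such markers had a log2 fold change above 0 over empty vector in both daf-2 RNAi and pitr-1 RNAi, with medians of 1.87 and 1.48, but none was called and the comparisons share their controls. The maternal gene pos-1, which specifies embryonic cell fates, was at 15.03, 68.2, 63.2 and 5.92 CPM in daf-2 RNAi replicates 1 to 4, 4.19, 18.97, 87.3 and 7.298 CPM in pitr-1 RNAi and 4.57, 13.5, 5.58 and 4.39 CPM in empty vector replicates 1 to 4. The high values lay in single libraries, daf-2 RNAi replicates 2 and 3 and pitr-1 RNAi replicate 3. Markers of body wall muscle had median log2 fold changes of 0.0068 for daf-2 RNAi and −0.043 for pitr-1 RNAi over empty vector. By replicate number all 4 muscle markers were called, beside 26.6% of all tested genes. So were 3 of 4 pharynx, 3 of 8 germline and early embryo, 1 of 8 intestine and 1 of 5 neuron markers.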
